A study of Mus musculus with 12 samples.

Results

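Astrocytes are the glial cells that clear transmitter and potassium from around neurons and wrap the vessels of the brain, and 10 genes long used to mark them were followed in the brainstem of mice given morphine or saline after birth. The genes were chosen by name: Gfap, Aqp4, Slc1a2, Slc1a3, Aldh1l1, Gja1, S100b, Sox9, Glul, and Kcnj10. All 10 were found among the 55418 genes of the count table, each as 1 row, and all 10 were kept by the filter on low counts in every comparison. The mice were outbred CFW (Swiss Webster) pups of both sexes, and each of 12 mice, 3 per sex and treatment, gave 1 library of brainstem RNA (medulla and pons) at P15. Morphine pups received 15 mg/kg of the sulfate subcutaneously 2 times daily from P1 to P14, saline pups received saline, and tissue was taken 16 h after the last injection, in spontaneous withdrawal. The labels name no genetic alteration. The labels do not name the dam, and treatments were assigned within litters, so mice of the same and of different groups may be littermates, and p values measure the spread between these mice only. The question put to the data was whether these astrocyte transcripts differed with morphine, in which sex, and how they varied between mice.

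The 10 genes cover different tasks of the cell. Gfap is the intermediate filament of astrocytes and S100b a calcium-binding protein. Slc1a2 (GLT-1) and Slc1a3 (GLAST) carry glutamate out of the synaptic space, and Glul, glutamine synthetase, turns it into glutamine that neurons take back. Aqp4 is the water channel of the end feet on vessels, Kcnj10 (Kir4.1) the potassium channel that buffers the potassium released by firing neurons, and Gja1 (connexin 43) joins astrocytes into a network through gap junctions. Aldh1l1 is an enzyme of folate metabolism, and Sox9 is a transcription factor of the glial lineage. Reactive astrocytes, as seen after injury, are known for a rise in Gfap. S100b, Glul, and Kcnj10 are also expressed by oligodendrocytes, and Gja1 by cells of the meninges. In bulk tissue fewer astrocytes and less RNA per astrocyte cannot be told apart.

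In GRCm38 each symbol stands for 1 protein-coding gene of GENCODE M21. Gfap (ENSMUSG00000020932) spans chr11:102887336-102900912 on the minus strand, Slc1a2 (ENSMUSG00000005089) chr2:102658659-102790784 and Aldh1l1 (ENSMUSG00000030088) chr6:90486427-90600203 on the plus strand. The counts cover exons only. Exons of other genes overlapped 13.37% of the exonic bases of Aldh1l1 (the antisense Gm15756 with 499 bases and the lincRNA Gm45901 on the same strand with 105), 3.491% of those of Glul, and 1.439% of those of Slc1a2, and no strand setting of the counting was given in the sources used here, so these 3 genes carry that uncertainty. The exons of the other 7 genes overlapped no exon of another gene.

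The RefSeq promoter table (GRCm38.p6) held 8 of the 10 genes, all but Sox9 and Aqp4. Shown here, for the letters that precede these genes, are the 250 bases before the RefSeq start of the 5 genes for which that window holds no annotated exon. The Gfap window lies in an intron of the gene itself, since its GENCODE model begins further upstream. Capitals mark matches, on either strand, to the NFI motif TTGGC, the STAT motif (TTC and GAA 3 bases apart), the SOX motifs ACAAAG and ACAAT, the E box CANNTG, and TATAAA; the coordinates are chr11:102897201-102897450 (minus strand), chr10:76253586-76253835 (plus), chr15:8710808-8711057 (minus), chr10:56377050-56377299 (plus), and chr1:172340960-172341209 (plus).
Gfap: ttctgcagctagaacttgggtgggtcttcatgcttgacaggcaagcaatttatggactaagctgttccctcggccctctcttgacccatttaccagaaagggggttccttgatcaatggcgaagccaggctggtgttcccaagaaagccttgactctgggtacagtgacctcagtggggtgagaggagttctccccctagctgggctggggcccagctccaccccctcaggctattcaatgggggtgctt
S100b: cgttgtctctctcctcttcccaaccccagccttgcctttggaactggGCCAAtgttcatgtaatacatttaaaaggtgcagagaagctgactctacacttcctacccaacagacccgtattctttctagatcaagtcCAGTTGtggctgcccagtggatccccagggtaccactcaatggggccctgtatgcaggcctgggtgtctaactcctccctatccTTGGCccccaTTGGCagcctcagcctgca
Slc1a3: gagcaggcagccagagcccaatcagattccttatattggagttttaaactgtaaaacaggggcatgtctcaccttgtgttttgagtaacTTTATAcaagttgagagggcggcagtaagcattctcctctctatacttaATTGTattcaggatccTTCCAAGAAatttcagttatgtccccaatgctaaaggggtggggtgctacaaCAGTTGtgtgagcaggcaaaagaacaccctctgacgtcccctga
Gja1: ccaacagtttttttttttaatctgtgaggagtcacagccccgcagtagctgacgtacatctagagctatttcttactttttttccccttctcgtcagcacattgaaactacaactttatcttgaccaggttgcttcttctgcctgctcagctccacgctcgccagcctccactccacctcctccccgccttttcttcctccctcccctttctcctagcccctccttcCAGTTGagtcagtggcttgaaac
Kcnj10: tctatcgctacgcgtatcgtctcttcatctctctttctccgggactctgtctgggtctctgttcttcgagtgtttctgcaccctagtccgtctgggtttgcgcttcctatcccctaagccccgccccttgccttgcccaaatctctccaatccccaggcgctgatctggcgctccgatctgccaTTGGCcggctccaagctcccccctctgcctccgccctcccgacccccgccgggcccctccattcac
Gfap held none of the 5 kinds of motif in this window. S100b held 3 NFI motifs and 1 E box, Slc1a3 held 1 STAT, 1 SOX, 1 E box, and 1 TATA match, Gja1 held 1 E box, and Kcnj10 held 1 NFI motif. Over the 32851 promoters of the table, 41.51% held the NFI motif, 7.02% the STAT motif, 38.81% a SOX motif, 66.22% an E box, and 12.37% TATAAA. GC content of the windows ran from 44.8% in Slc1a3 to 62.0% in Kcnj10, with 55.6% in Gfap, 53.6% in S100b, and 50.0% in Gja1. The matches describe the letters only, and no expression value was compared with them.

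Library totals ran from 27850565 to 48097947 counts, and levels are given as CPM, counts scaled to library size after TMM normalization. The lowest count of any of the 10 genes in any library was 582 (Sox9), so counting error was small beside the spread between mice. The labels give brainstem, while the deposited extraction text speaks of spinal cords. All 8 hindbrain markers were detected (Slc6a5, the glycine transporter of inhibitory neurons, was the highest). Of 6 lumbar cord genes, Hoxd11 and Hoxc11 were at 0 counts in every library, and the highest count of any other was 3 (Hoxd10). Of the forebrain genes, Neurod6 was between 7.02 and 13.2 CPM. The lists do not cover the cord above the lumbar level, so they do not settle the tissue. The library labelled morphine male 6 had 379.9 CPM of Xist, against 0.398 to 2.71 CPM in the other males, and 546.8 to 970.5 CPM in the females, and its Y-linked genes were at 8.35% to 29.5% of the mean of the other males. It thus held both male and female signals and was kept in its labelled group. Without it 0 of the 10 genes passed in males, in the interaction, and between the sexes, as with it. Saline male 3 stood apart from its group: the chi-square per degree of freedom between libraries was 198 and 257 for its pairs with the other saline males, and at most 45.2 for every other pair within a group. Results of the 10 genes that rest on it are given with and without it.

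Astrocyte transcripts were abundant. Mean levels over the 12 mice ran from 22.8 CPM for Sox9 to 3595 CPM for Slc1a2, and the summed level of the 10 genes was between 7583 CPM (morphine male 4) and 9672 CPM (saline female 4). To compare genes, levels were divided by exonic length. On this scale S100b was highest, with 303.3 ± 39.6 CPM per kb (SD, n = 12), followed by Kcnj10 (279 ± 25.2), Slc1a2 (274 ± 35.3), and Glul (241 ± 26.3). These 4 did not hold a fixed order: S100b was above Kcnj10 in 9 of 12 mice, Kcnj10 above Slc1a2 in 6, and Slc1a2 above Glul in 9. Gfap (153 ± 34.6) and Aqp4 (142 ± 21.4) came next, with Gfap the higher in 7 of 12 mice. Slc1a3 (56.1 ± 3.36), Gja1 (44.3 ± 4.27), Aldh1l1 (12.5 ± 3.48), and Sox9 (5.52 ± 0.864) followed, each above the next in all 12 mice. S100b ranked 52nd of 18570 genes by this measure, and Sox9, a transcription factor, ranked 6813th. With the length of the longest transcript in place of all exonic bases, Slc1a2 came first with 310.0 CPM per kb, and Gja1 (117) stood above Slc1a3 (108).

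The spread between mice differed between the genes. Slc1a3 was the steadiest, with a coefficient of variation of 6.00% and a highest level 1.20 times its lowest. Aldh1l1 was the least steady, at 27.9% and 2.58 times, followed by Gfap at 22.6% and 2.00 times. The median coefficient of variation of the 10 genes was 13.0%, beside 13.6% over the 9974 genes with a mean of at least 10 CPM. Among those, 12.9% of genes varied more than Aldh1l1, and 4.93% varied less than Slc1a3.

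**Figure D1:**
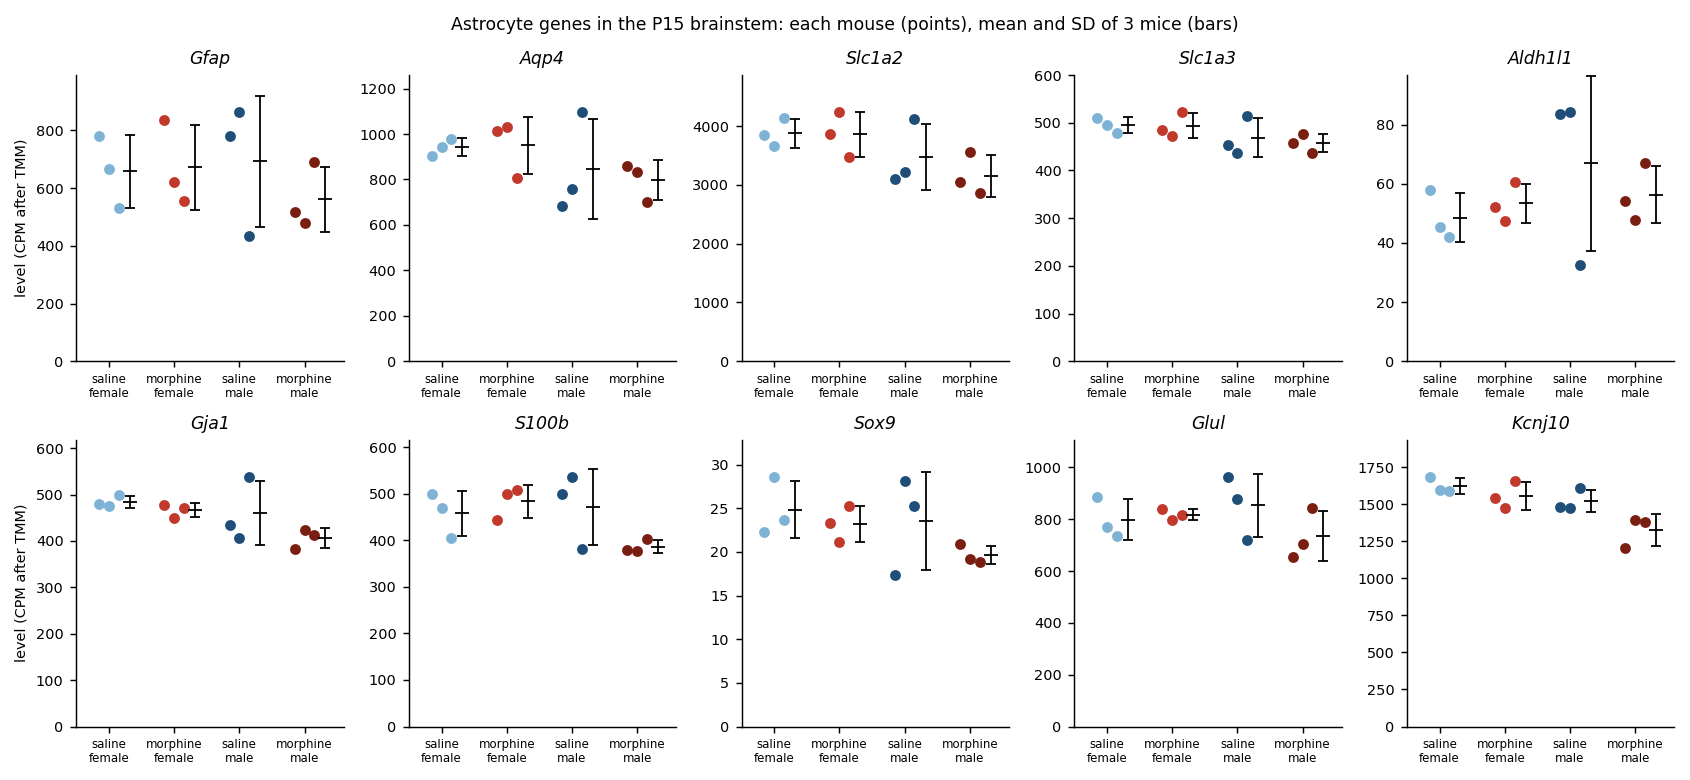
Level of each astrocyte gene in CPM after TMM normalization (vertical axis, from 0), 1 point per mouse in the 4 groups, with the mean and SD of 3 mice as bars. The 3 saline males spread widely for Gfap and Aldh1l1, and the 3 morphine males lie below the 3 saline males for Kcnj10.

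A gene was called when its log2 fold change lay beyond 0.26 in either direction and its unadjusted p was below 0.05. None of the 10 genes passed between morphine and saline mice, in females, in males, or in both sexes combined. The tests were edgeR's quasi-likelihood test over all genes, in which 1.81% of 18109 genes passed in females, 2.99% of 18166 in males, and 1.19% of 18608 in both sexes combined. In these 3 comparisons 0 of the 10 genes had an unadjusted p under 0.05, and 0 passed with DESeq2's Wald test or edgeR's exactTest. In females 5 genes had a higher and 5 a lower fitted level in morphine mice, with a median log2 fold change of -0.00 beside -0.01 over all genes. In males all 10 had a lower fitted level, as had 62.4% of all genes, with a median of -0.22 beside -0.06. With scaling by total counts 8 of 10 were lower and the medians were -0.09 and 0.06. Without saline male 3 Aqp4, Slc1a2, and Slc1a3 had a higher fitted level in morphine males. In both sexes combined all 10 were lower (7 of 10 with scaling by total counts), as were 57.4% of all genes, with a median of -0.09 beside -0.02. When saline male 3 was left out, Aqp4 (0.07) and Slc1a3 (0.01) had a higher fitted level in morphine mice of both sexes combined.

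Gfap was at 781.1, 664.6, and 529.3 CPM in the saline females and at 836.2, 622.7, and 556.0 CPM in the morphine females. In the saline males it was at 779.9, 863.7, and 432.8 CPM, and in the morphine males at 517.3, 478.6, and 690.0 CPM. The groups overlapped in both sexes, and saline male 3 had the lowest level of all 12 mice. Gfap differed by 0.03 (standard error, SE, 0.16) on the log2 scale in females and -0.30 (SE 0.27) in males, with an unadjusted p of 0.304 and an adjusted p of 1.00 in males from edgeR's quasi-likelihood test. The 95% interval in males allowed a fold of 0.519 to 1.27. No rise of Gfap, the usual sign of astrocyte reactivity, passed the test in either sex.

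S100b was at 500.1, 469.9, and 405.4 CPM in the saline females and at 442.9, 499.4, and 508.7 CPM in the morphine females. It was at 499.1, 535.5, and 380.3 CPM in the saline males and at 380.0, 377.3, and 402.0 CPM in the morphine males. Saline males 1 and 2 lay above every morphine male, and saline male 3 lay among them. In males the log2 fold change was -0.29 (SE 0.15), with the smallest unadjusted p of the 10 genes in that sex, 0.0893 in edgeR's quasi-likelihood test, and in females it was 0.07 (SE 0.10).

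Of the enzymes, Glul was at 886.7, 771.4, and 735.4 CPM in saline females, 838.7, 798.2, and 817.6 CPM in morphine females, 962.3, 876.6, and 720.8 CPM in saline males, and 655.5, 706.3, and 842.5 CPM in morphine males. Its groups overlapped in both sexes, and its log2 fold change was 0.03 (SE 0.08) in females and -0.22 (SE 0.16) in males. Aldh1l1 was at 58.0, 45.4, and 42.1 CPM in saline females and at 52.3, 47.4, and 60.6 CPM in morphine females. In males it was at 83.7, 84.3, and 32.7 CPM with saline and at 54.2, 47.9, and 67.0 CPM with morphine. The saline males thus held the 2 highest levels of Aldh1l1 among the 12 mice and the lowest. The log2 fold change in males, -0.25 (SE 0.35), had a 95% interval from -1.08 to 0.58, the widest of the 10 genes.

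Slc1a2, the main glutamate transporter, was at 3848, 3653, and 4139 CPM in saline females and at 3866, 4241, and 3476 CPM in morphine females. It was at 3099, 3216, and 4122 CPM in saline males and at 3052, 3558, and 2867 CPM in morphine males. The groups overlapped, with log2 fold changes of -0.01 (SE 0.09) in females and -0.15 (SE 0.17) in males. Slc1a3 stayed between 436.9 and 522.8 CPM in all 12 mice. Its fold change in both sexes combined had the narrowest interval of the 10 genes, 0.899 to 1.10.

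Of the channels, Aqp4 was at 902.9, 944.7, and 979.2 CPM in saline females and at 1015, 1029, and 806.3 CPM in morphine females. It was at 685.3, 756.9, and 1097 CPM in saline males and at 860.1, 833.3, and 699.2 CPM in morphine males. Saline male 3, lowest for Gfap and Aldh1l1, was here the highest of the 12 mice. The log2 fold changes of Aqp4 were 0.00 (SE 0.11) in females and -0.10 (SE 0.21) in males.

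Kcnj10 was at 1483, 1476, and 1609.7 CPM in saline males and at 1202, 1393, and 1379 CPM in morphine males, the only 1 of the 10 genes whose groups did not overlap in males. In females no gene of the 10 was separated in this way, and Kcnj10 was at 1682, 1594, and 1590.0 CPM with saline and at 1542, 1472, and 1655 CPM with morphine. Groups that do not overlap were found for 9.1% of all genes in males and 5.65% in females, so that 1 of 10 and 0 of 10 were close to the share over all genes or below it. The log2 fold change of Kcnj10 in males was -0.21 (SE 0.13), with an unadjusted p of 0.145 in edgeR's quasi-likelihood test. An exact permutation test of 3 against 3 cannot give a p below 0.1. Gja1 was between 407.3 and 537.3 CPM in saline males and between 382.8 and 424.0 CPM in morphine males, with a log2 fold difference of -0.19 (SE 0.15). Sox9 was between 17.3 and 28.2 CPM in saline males and between 18.9 and 20.9 CPM in morphine males, with a log2 fold difference of -0.27 (SE 0.21).

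**Figure D2:**
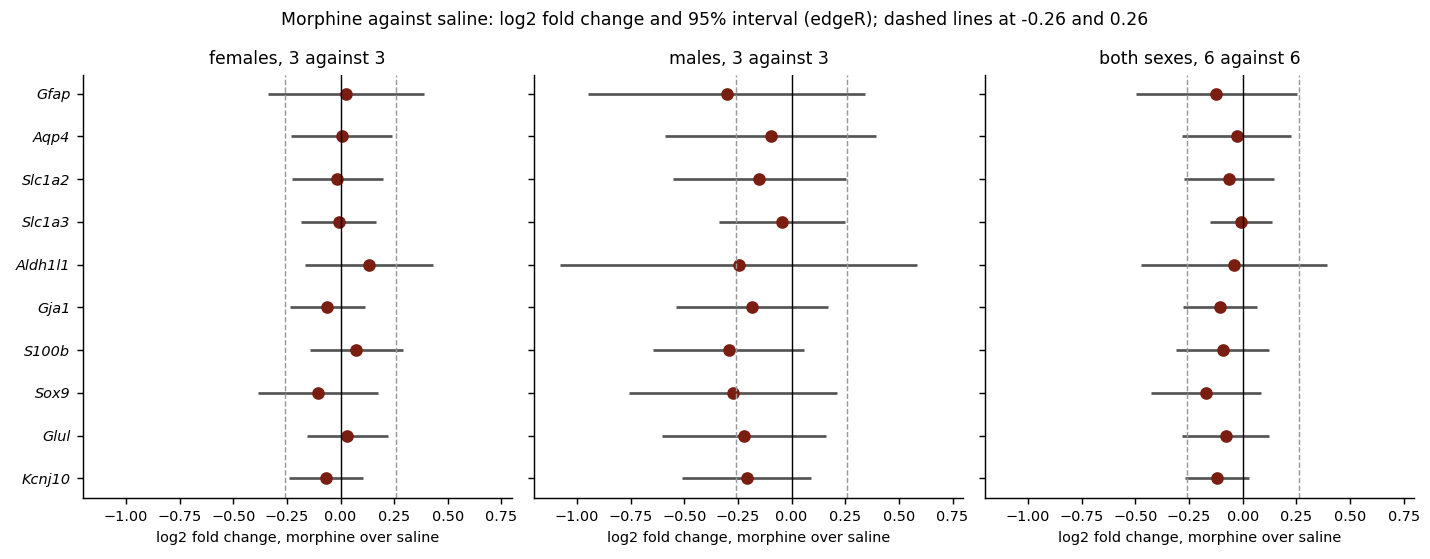
Log2 fold change of each gene, morphine over saline (horizontal axis), with its 95% interval from edgeR's quasi-likelihood test, in females, males, and both sexes combined; dashed lines mark -0.26 and 0.26. All intervals include 0, and those of males are wider than those of females.

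Whether the response differed between the sexes was tested by the interaction of treatment and sex. 0 of the 10 genes passed in edgeR's quasi-likelihood test, 0 had an unadjusted p under 0.05, and 0 passed with DESeq2, while 2.94% of 19027 genes passed in edgeR. Over all genes 54.4% of the fitted interactions were negative, with a median of -0.03. For the 10 genes all were negative, that is, lower in males than in females (8 of 10 with scaling by total counts), with a median of -0.14. The smallest p was that of S100b, 0.0838, with a log2 difference of -0.35 (SE 0.18). The uniform sign rested on saline male 3. When this mouse was left out, the fitted interaction was positive for Aqp4 (0.13), Slc1a2 (0.008), Slc1a3 (0.04), and Gja1 (0.007). It stayed negative for the other genes of the 10.

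Between the sexes, with treatment as a covariate, 9 of 10 genes, and 51.1% of all genes, had a lower fitted level in males. Aldh1l1 was the exception among the 10, and their median log2 fold change was -0.15 beside -0.01 over all genes. None passed both thresholds, which 3.94% of genes did. By p alone, which 4.55% of all genes met, Slc1a2 (-0.23, SE 0.10) and Kcnj10 (-0.17, SE 0.07) passed, both under the fold threshold. Their adjusted p in edgeR's quasi-likelihood test was 0.734. Slc1a2 ran from 3476 to 4241 CPM in females and from 2867 to 4122 CPM in males, so the sexes overlapped. Kcnj10 ran from 1472 to 1682 CPM in females and lay between 1202 and 1609.7 CPM in males. When saline male 3 was left out, Gfap (0.01) and Glul (0.02) also had a higher fitted level in males, as Aldh1l1 did.

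The astrocyte genes did not vary as 1 block over the 12 mice. Of 45 pairs, 29 had a positive and 16 a negative Pearson r of log2 CPM, and 11 had a Benjamini-Hochberg adjusted permutation p under 0.05 (9 positive and 2 negative; 8 by Spearman's rho). Aqp4 and Slc1a2 varied together, with r = 0.889 (permutation p = 0.00017, adjusted p = 0.00495) and rho = 0.874 (permutation p = 0.00038), and without the 2 mice farthest from the median of Aqp4 r was 0.823. Gfap and Glul did so with r = 0.830 (permutation p = 0.00086, adjusted p = 0.00967), rho = 0.860 (permutation p = 0.00058), and 0.798 without 2 mice. Gja1 and Kcnj10 had r = 0.845 (permutation p = 0.00044, adjusted p = 0.00660), rho = 0.811 (permutation p = 0.00226), and 0.825 without 2 mice. In contrast, Aqp4 and Aldh1l1, both widely used to mark astrocytes, ran opposite to each other, with r = -0.867 (permutation p = 0.00022, adjusted p = 0.00495), rho = -0.860 (permutation p = 0.0005), and -0.824 without 2 mice. The permutations were made over all 12 mice without regard to group. Centred within the 4 groups r was 0.867 for Aqp4 with Slc1a2, 0.827 for Gfap with Glul, and 0.657 for Gja1 with Kcnj10. It was -0.918 for Aqp4 with Aldh1l1, and without saline male 3 the r of that pair was -0.828. The ratio of Gfap to Aqp4 levels ran from 0.394 in saline male 3 to 1.14 in saline males 1 and 2, with the other mice between 0.541 and 0.987.

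The genes at the ends of the range of base composition varied in opposite directions. Among the longest transcripts, GC content was 55.5% for Gfap and 54.4% for Aldh1l1, above that of 83.2% and 78.5% of 9973 genes. It was 41.4% for Aqp4, 42.2% for Gja1, and 45.3% for Slc1a2, above that of 11.6%, 15.1%, and 30.8% of genes. The other 5 genes lay between, Slc1a3 at 45.7%, S100b at 48.3%, Glul at 49.2%, Sox9 at 49.3%, and Kcnj10 at 49.6%. The libraries themselves differed in how counts depended on GC content. The slope of log2 level on GC content over the 9974 genes, per 10 percentage points of GC, was 0.45 and 0.57 in saline males 1 and 2, -0.59 in saline male 3, and between -0.32 and 0.28 in the other 9 mice. The saline males thus held both ends of this range. Over the 12 mice, 7 of the 10 genes had an adjusted permutation p under 0.05 for Pearson's r with this slope, 3 positive and 4 negative (5 of 10 by rho). For Aldh1l1 r was 0.987 (permutation p = 1e-05, the smallest the 100000 resamples can give, adjusted p = 1e-04), rho 0.986 (permutation p = 1e-05), and r without 2 mice 0.976. For Aqp4 r was -0.859 (permutation p = 0.00025, adjusted p = 0.00125), rho -0.825 (permutation p = 0.00153), and r without 2 mice -0.855. For Gfap r was 0.725 (permutation p = 0.00689, adjusted p = 0.0172) and rho 0.622 (permutation p = 0.0349). Without saline males 2 and 3 its r was 0.471, so this relation was weaker without those 2 mice, which had the end slopes. The same holds for Gja1 (r -0.706, permutation p = 0.0104, adjusted p = 0.0208, rho -0.692, permutation p = 0.0152, and r -0.469 without them) and Slc1a3 (r -0.683, permutation p = 0.0132, adjusted p = 0.0221, rho -0.580, permutation p = 0.0531, and r -0.458 without them). Without saline male 3 alone r was 0.61 for Gfap, -0.563 for Gja1, and -0.611 for Slc1a3. The adjusted permutation p of rho was 0.0581, 0.0379, and 0.0758 for these genes. Among the genes of middle GC content, S100b (r 0.552) and Glul (0.665) had a positive and Sox9 (-0.230) and Kcnj10 (-0.290) a negative r, which did not follow their order by GC. Across genes, which are not independent replicates, the r of a gene with Aldh1l1 had an r of 0.813 with its GC content, and 21.3% of the other genes had an r above 0.9 with Aldh1l1.

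**Figure D3:**
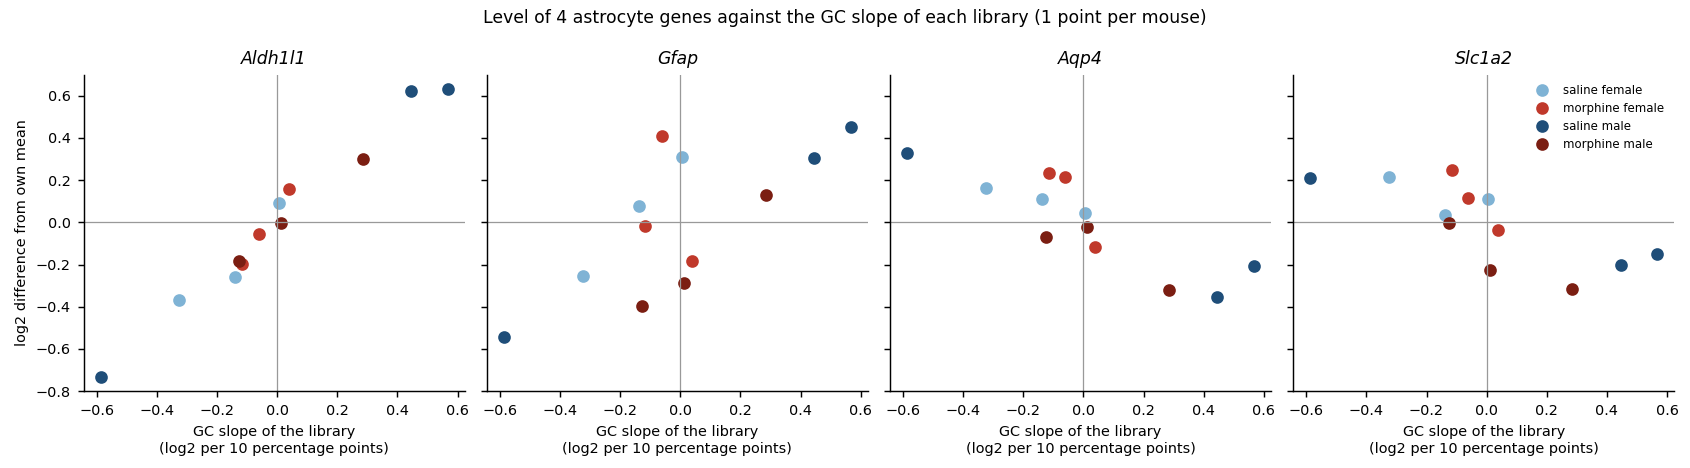
Level of Aldh1l1, Gfap, Aqp4, and Slc1a2 as log2 difference from the gene's own mean (vertical axis) against the GC slope of the library (horizontal axis, log2 per 10 percentage points of GC), 1 point per mouse, coloured by group. Aldh1l1 and Gfap lie higher, and Aqp4 and Slc1a2 lower, in libraries with a higher slope, with saline male 3 at -0.59 and saline male 2 at 0.57.

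A fit with offsets that took out the trend of each library with GC content and length was added after the data were seen. With these offsets 42 of the 45 pairs had a positive r, the median r went from 0.347 to 0.537, and the r of Aqp4 with Aldh1l1 went from -0.867 to -0.043. The r of Gfap with Aqp4 went from -0.373 to 0.729, and that of Gja1 with Glul from 0.008 to 0.902. The r was higher with the offsets in 32 pairs and lower in 13, among them Gfap with Aldh1l1 (0.720 to 0.039), Gfap with Glul (0.830 to 0.510), Gja1 with Kcnj10 (0.845 to 0.678), and Aqp4 with Slc1a2 (0.889 to 0.708). The coefficient of variation of Aldh1l1 went from 27.9% to 14.3%, that of Gfap from 22.6% to 16.9%, and that of Aqp4 from 15.1% to 7.68%, and it was also lower for Slc1a2 and Gja1. It was higher with the offsets for the other 5 genes, Kcnj10 (9.03% to 11.5%), Sox9 (15.6% to 16.3%), S100b (13.0% to 13.5%), Glul (10.9% to 11.2%), and Slc1a3 (6.00% to 6.46%). Between treatments 0 of 10 genes passed in females (1.78% of all genes) and in both sexes combined (1.72%), and 1 of 10 passed in males (6.9%). That gene was S100b, lower in morphine males with a log2 fold difference of -0.30 (SE 0.12, unadjusted p = 0.0391, adjusted p = 0.518 in edgeR's quasi-likelihood test). Slc1a2 (-0.24) and Kcnj10 (-0.25) met the p threshold in males with these offsets but not the fold threshold. S100b (-0.39, SE 0.18) and Slc1a2 (-0.30, SE 0.12) passed in the interaction, where 5.68% of all genes did, with an adjusted p of 0.772 each. Between the sexes Gfap passed and was lower in males, with a log2 fold difference of -0.31 (SE 0.09, unadjusted p = 0.00556, adjusted p = 0.850), where 2.94% of all genes did.

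**Figure D4:**
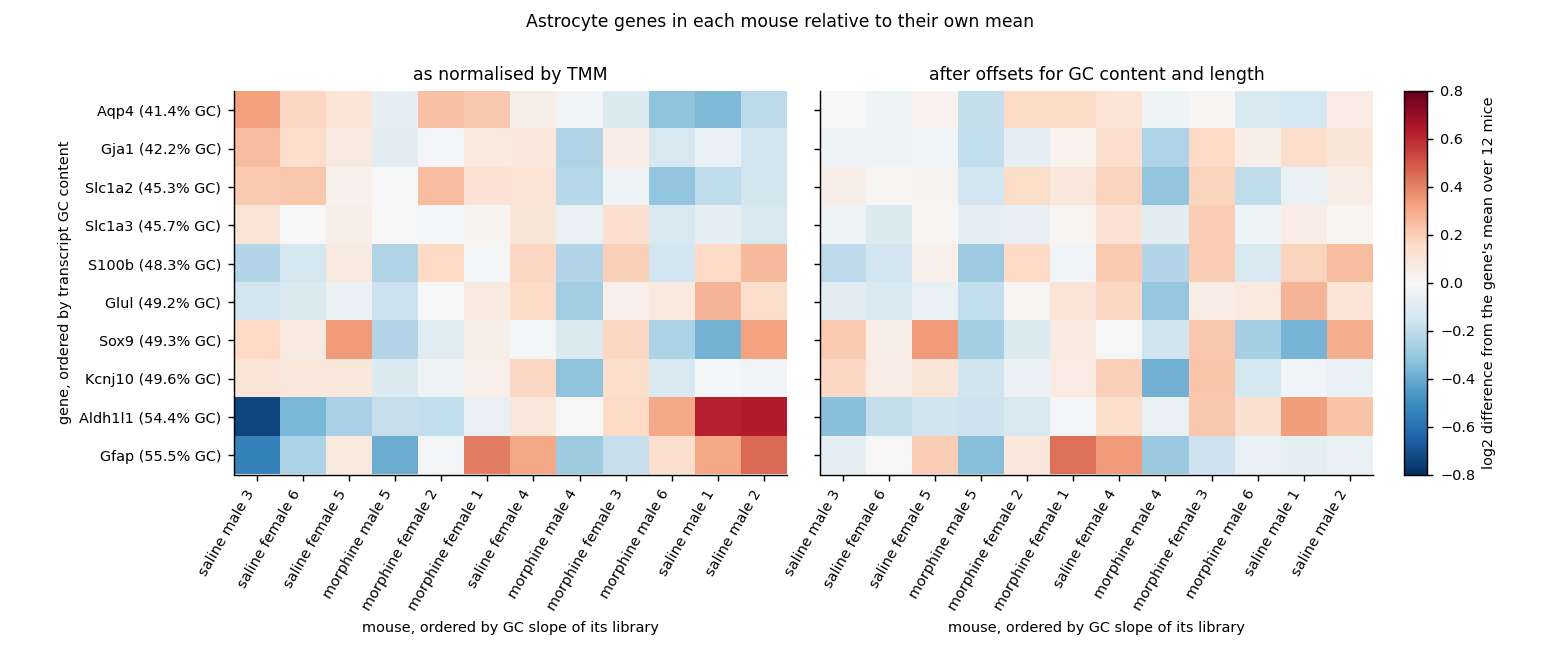
Level of each astrocyte gene (rows, ordered by GC content of the transcript) in each mouse (columns, ordered by the GC slope of the library) as log2 difference from the gene's mean over the 12 mice (colour), as normalised by TMM (left) and after offsets for GC content and length (right). On the left Aqp4, Gja1, and Slc1a2 run opposite to Aldh1l1 and Gfap, with saline male 3 and saline males 1 and 2 at the ends; on the right Aldh1l1, Gfap, Aqp4, Slc1a2, and Gja1 spread less between mice and the other 5 genes slightly more.

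Saline male 3 decided several calls. Without it Gfap (-0.51), Aldh1l1 (-0.54), and S100b (-0.39) passed in males as lower in morphine mice in edgeR's quasi-likelihood test, with adjusted p values of 0.0763, 0.0563, and 0.0331, while 28.6% of all genes passed. In that fit Aqp4, Slc1a2, and Slc1a3 had log2 fold changes of 0.18, 0.03, and 0.07. With the GC and length offsets and without this mouse S100b (-0.43, adjusted p = 0.00614), Glul (-0.32, adjusted p = 0.0865), and Aldh1l1 (-0.31, adjusted p = 0.0652) passed, where 19.1% of all genes did, and the log2 fold change of Gfap was -0.17. In each of these 4 fits of males (with and without the mouse, with and without the offsets) S100b had a log2 fold change between -0.43 and -0.29, and it passed in 3 of them. Leaving out this mouse leaves 2 saline males, which are the 2 with the highest GC slopes.

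Of the genes outside the 10, those whose level over the 12 mice was most like the mean of the standardised astrocyte genes were Adhfe1 (r = 0.933), Arhgef3 (0.911), Rab31 (0.898), Tppp (0.893), and Igsf11 (0.891), among 9964 genes. The genes most like Aldh1l1 alone were Spryd3, Ubb, Mrpl4, St3gal3, and Pef1, each with an r of 0.993 or 0.994, and those most like Aqp4 alone were Agps (0.969), Gpalpp1 (0.952), Stxbp3 (0.950), Tmem243 (0.944), and Gclc (0.942). With levels centred within the 4 groups the genes most like the mean were Hbegf (0.935), Eif4e3 (0.923), Commd6 (0.882), Prdx4 (0.881), and Cnn3 (0.875), so the names depended on the differences between groups. The 4 lists shared no gene. These values are descriptions over 12 mice that share the library trends above.

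The wider astrocyte biology was followed in 12 lists of 152 other genes, of which 148 were tested. In females 4 genes passed as higher and 3 as lower in morphine mice, in males 1 and 3, and in both sexes combined 1 and 1, which are 4.73%, 2.70%, and 1.35% of the tested genes beside 1.81%, 2.99%, and 1.19% of all genes. No gene of the lists had an adjusted p under 0.05. All values of the lists are from fits without the GC and length offsets. The median log2 fold change of the 148 genes was -0.00 in females, -0.16 in males, and -0.08 in both sexes combined, beside -0.01, -0.06, and -0.02 over all genes. Between the sexes 6 genes passed, all higher in males (Clcn2, Plec, Entpd2, Ezr, Timp1, and Clcf1), and 2 passed in the interaction (Clcf1 and Mt1), which are 4.05% and 1.35% beside 3.94% and 2.94% of all genes. Saline males 1 and 2 were highest for Plec (115.8, 137.8 CPM), Clcn2 (40.1, 45.0), and Entpd2 (8.64, 8.20). Saline male 3 was the lowest of the 12 mice for each (27.3, 11.8, and 3.03 CPM). Timp1 and Clcf1 reached at most 1.28 CPM.

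Among genes of the glial junctions, none of 6 passed as higher, Gjb6 (connexin 30, which partners connexin 43 in astrocytes) fell in males and Gjb2 (connexin 26) fell in females. Gjb6 was at 100.4, 100.1, and 99.5 CPM in saline males and at 65.1, 84.7, and 85.2 CPM in morphine males, without overlap, with a log2 fold difference of -0.36 (SE 0.15). In females Gjb6 was between 85.1 and 97.8 CPM with saline and between 84.7 and 88.9 CPM with morphine. Gjb2 had a log2 fold difference of -0.49 (SE 0.17) in females. In that comparison all 8 markers of meningeal fibroblasts also had a lower fitted level, with a median of -0.64.

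Among the genes of lipid handling Fabp7, the brain fatty acid-binding protein of radial glia and young astrocytes, rose in morphine females, with 109.4, 113.8, and 120.7 CPM in saline females and 139.9, 130.8, and 156.3 CPM in morphine females and a log2 fold change of 0.30 (SE 0.10). The other 9 genes of that list did not pass. Of 8 genes of the glial cytoskeleton Plec, a linker of intermediate filaments, rose in females by 0.30 on the log2 scale (SE 0.11). Of 30 further astrocyte markers, Mt1 (metallothionein, 0.41, SE 0.17) and Agt (angiotensinogen, 0.36, SE 0.16) passed as higher in morphine females, and Tril (-0.34, SE 0.13) and Lgr6 (-0.43, SE 0.18) fell in males. The female groups overlapped for Mt1 and Agt. The highest saline levels were 66.1 and 75.5 CPM, above the lowest morphine levels of 62.0 and 64.1 CPM. Mt1 also passed in the interaction (-1.63, SE 0.73), and its level was 174.0, 199.7, and 29.3 CPM in saline males 1 to 3 and 40.8 to 84.6 CPM in morphine males, so that the saline males again held both ends of its range. Of 14 genes of synaptic factors and engulfment, Thbs2, a thrombospondin that promotes synapse formation, fell in females (-0.49, SE 0.17).

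The reactive lists held genes known to rise in reactive astrocytes, and most of their members did not pass. Of 11 tested general reactive genes Serpina3n, an inhibitor of serine proteases, fell (-0.33, SE 0.15) and Timp1, an inhibitor of metalloproteases, rose (0.50, SE 0.23) in both sexes combined, Timp1 at a level of at most 1.28 CPM. Levels of both genes overlapped between treatments. Serpina3n was at 42.4 to 56.6 CPM in morphine mice and at 44.3 to 95.9 CPM in saline mice. Its highest level was that of saline male 2, and the next saline mouse was at 62.2 CPM. Of 12 tested genes of the A1 type Serping1, the C1 inhibitor of complement, fell in females (-0.64, SE 0.25), where the markers of meningeal fibroblasts were also lower. Of 10 tested genes of the A2 type Clcf1, a cytokine of the IL-6 family, rose in males, from 0.238, 0.547, and 0.398 CPM to 0.773, 1.28, and 0.590 CPM, with a log2 fold difference of 1.12 (SE 0.43), and it passed in the interaction (1.60, SE 0.60). No gene passed from the lists of glutamate and GABA uptake (11 genes), potassium, sodium, bicarbonate, and water handling (10), glial transcription factors (15), or lactate, glucose, and glycogen handling (12) in females, males, or both sexes combined.

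**Figure D5:**
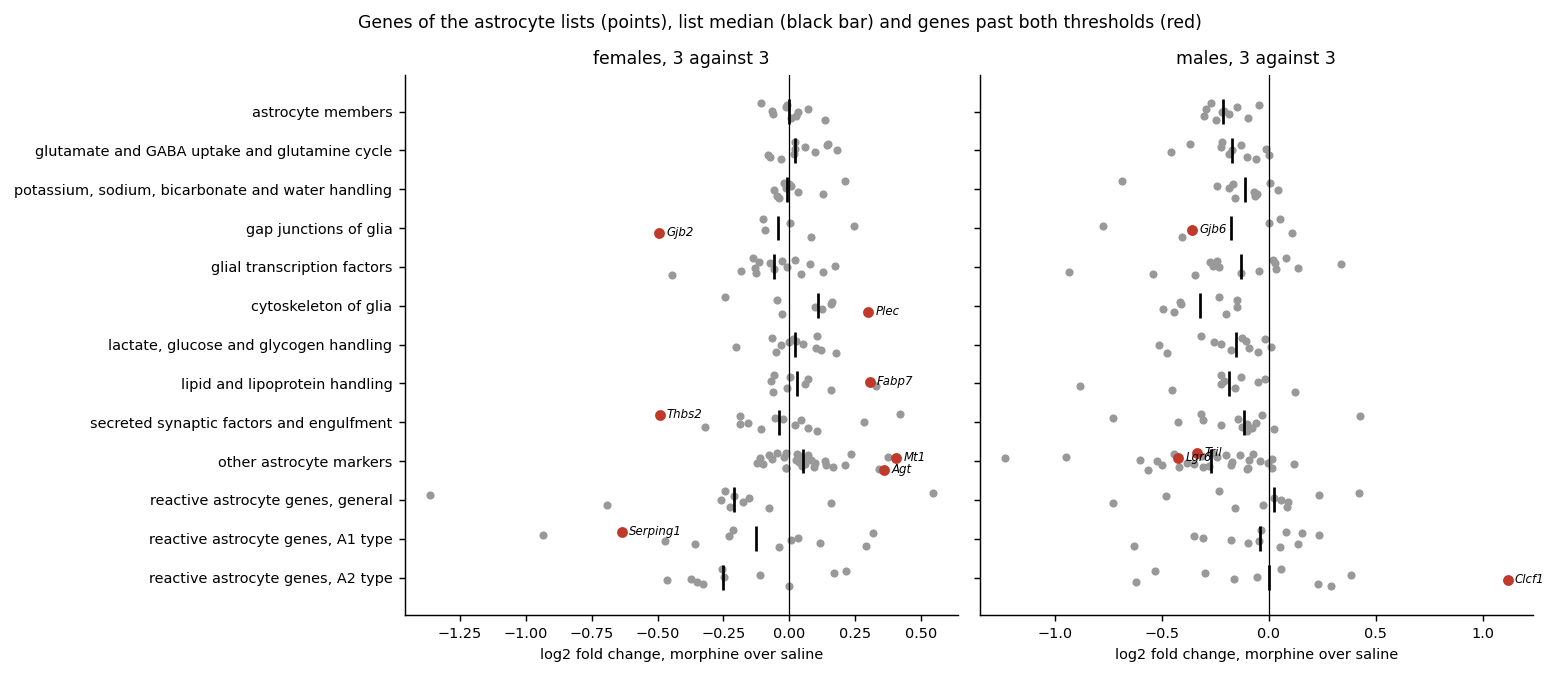
Log2 fold change, morphine over saline (horizontal axis), of each gene of the astrocyte lists (points, 1 row per list), with the list's median as a black bar and genes past both thresholds in red and named, for females (left) and males (right). In males the medians of 10 of the 13 lists lie below -0.1, and in females those of the 3 reactive lists do.

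Some markers of other cell types passed between treatments, where 2.99% of all genes did in males and 1.81% in females. In males all 10 oligodendrocyte markers had a lower fitted level in morphine mice and 2 passed (Mobp, -0.42, and Cldn11, -0.49), and their summed level was 34701 to 43836 CPM in morphine males and 40160 to 62105 CPM in saline males. All 8 choroid plexus markers had a higher fitted level in morphine males and 5 passed (Folr1, Clic6, Kl, Aqp1, and Otx2), with a sum of 422.5 to 852.9 CPM against 273.8 to 530.7 CPM. In females all 8 had a lower fitted level in morphine mice and none passed (median -0.75). Their sum was 11.3 to 479.4 CPM in saline females and 31.9 to 166.5 CPM in morphine females. Ttr was at 1.28, 30.9, and 423.3 CPM in saline females and at 149.1, 18.9, and 114.0 CPM in morphine females. Only saline female 6 thus lay above every morphine female for Ttr. Between the sexes 6 of 8 choroid plexus markers passed as higher in males. Of 10 microglia markers 9 had a lower fitted level in morphine males and 9 of 10 a higher one in morphine females (median 0.11), and none passed in either sex. Among the 8 markers of Bergmann glia and cerebellar neurons Gabra6 (1.35) and Fat2 (0.81) rose in males. Gabra6 was at 4.86, 3.02, and 4.90 CPM in saline males and at 7.28, 19.1, and 6.44 CPM in morphine males. Morphine male 5 thus stood far above the others, and saline female 6 was at 8.66 CPM. Fat2 was at 11.5 to 13.8 CPM in saline males and at 19.2 to 24.7 CPM in morphine males. No marker of oligodendrocyte precursors (8 genes), neurons (13), endothelial cells (8), ependymal cells (6 tested), or red blood cells (5 tested) passed between treatments. In females all 8 markers of meningeal fibroblasts had a lower fitted level in morphine mice and 3 passed (Dcn, Col3a1, and Aldh1a2), with a sum of 93.9 to 175.5 CPM against 155.3 to 234.1 CPM. No marker of these cell types was at 0 throughout. The summed level of the 10 astrocyte genes was 9142 to 9672 CPM in saline females, 8900 to 9654 CPM in morphine females, 8497 to 9472 CPM in saline males, and 7583 to 8314 CPM in morphine males. The sums, in which Slc1a2 was the highest gene, did not overlap in males and overlapped in females. Of single genes 9.1% did not overlap in males, and no such share was computed for sums of 10 genes. With scaling by total counts they overlapped in males too, with 8005 to 8523 CPM in morphine males and 8148 to 9219 CPM in saline males. Whether these other cell types had a part in the values of the astrocyte genes or of the astrocyte lists was not tested.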

How the data were processed

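Poly-A RNA of 12 brainstems was sequenced as 100 bp single-end reads on 1 lane. Per the labels and methods, the authors used Trimmomatic for trimming, STAR for alignment to mm10, and featureCounts for counts over Ensembl exons. Versions and strand setting are not given in the sources used here. The deposited values are raw read counts per gene (whole numbers, totals from 27850565 to 48097947), and every column was mapped to a mouse.

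The test was the quasi-likelihood F test (edgeR 4.0.16, R 4.3.3, with TMM and filterByExpr), with sex as a covariate in the fit of both sexes, each sex fitted alone, and the interaction fitted over all mice, with p values adjusted over all genes. Genes passed where unadjusted p was below 0.05 and the log2 fold change lay beyond 0.26 in either direction. Intervals are 95% intervals of the fit. Log2 CPM used a prior count of 2, and correlations 100000 permutations. Dam, which the series' design text names as a covariate, is not in the labels. Same-numbered mice of the 2 treatments are of opposite sex, and their deviations correlated between -0.36 and 0.18. These values cannot tell whether same-numbered mice were littermates, and the numbers were not used as pairs in the main fits.

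The genes, lists, tests, and alternatives (DESeq2 1.42.0, exactTest, scalings, filters, covariates, thresholds, each mouse left out) were chosen with earlier results of these data known; loess offsets (span 0.5) for GC content and length of the longest GENCODE M21 transcript were added after the data were seen. Text names all 10 genes, at most 3 passing genes of each list, the 5 genes of most similar pattern with at least 10 CPM (those for Aldh1l1 and Aqp4 were added later), and the sex-check genes; other cell type markers that passed were named after their values were seen. The scripts were tested on simulated data.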

Additional observations from a re-analysis of the deposited data

How the results depend on the processing

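In the comparison of both sexes and in females, 0 of the 10 genes passed under every alternative run, the fits that left out 1 mouse included. With the replicate block the count in both sexes combined was 0 as well; within a sex no paired analysis was possible because the groups share no replicate number. Leaving out 1 mouse gave 0 to 3 passing genes in males (1, Sox9, without saline male 1; 3 without saline male 3), 0 to 4 in the interaction (4, Gfap, Aldh1l1, S100b, and Glul, without saline male 3; 1, S100b, without morphine female 1), and 0 to 3 between the sexes (3, Aqp4, Slc1a2, and Aldh1l1, without saline male 3; 1, Slc1a2, without morphine male 5). The share of all genes passing was then 1.86% and 28.6% in males, 24.1% and 2.31% in the interaction, and 20.9% and 5.51% between the sexes. A threshold on p alone gave 2 genes between the sexes. The GC and length offsets gave 1 gene in males, 2 in the interaction, and 1 between the sexes, where 6.9%, 5.68%, and 2.94% of all genes passed, and with saline male 3 left out as well 3, 4, and 1, where 19.1%, 15.5%, and 8.56% did. All other alternatives gave 0, as the main settings did. The fitted sign of a gene changed in 12 of 200 values in both sexes combined, 12 of 130 in females, 5 of 130 in males, 9 of 170 in the interaction, and 6 of 170 between the sexes. These counts leave out the fits with the GC and length offsets. With the offsets and all 12 mice the sign in females changed for Gfap (-0.04), Slc1a2 (0.06), Slc1a3 (0.05), and Gja1 (0.01). It changed for no gene of the 10 in the other comparisons. The cause of these changes was not tested. The 95% intervals on the log2 scale extended up to 0.83 to either side of the fitted value in males and up to 0.37 in females.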
